A study of Mus musculus with 6 samples.

Results

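Integrins are cell-surface receptors built from an alpha and a beta chain, and basement membranes are the thin extracellular sheets to which many of them bind. The 41 genes described here code for integrin chains, laminin and collagen IV chains, nidogens, heparan sulfate proteoglycans, dystroglycan and fibronectin. They were chosen by name, with earlier results of these data known. Every probe of the array whose gene name is one of the 41 was taken, which gave 90 probes. Of the 41 genes, 20 are integrin chains (12 alpha and 8 beta), 17 are laminin, collagen IV or nidogen chains, and 4 are Hspg2, Agrn, Dag1 and Fn1. The whole comparison tested 19335 genes, of which 35 were among these 41.

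The study compared wild-type (WT) with Paraxis-/- mouse embryos at embryonic day 9.5. Paraxis, the product of Tcf15, is a transcription factor of the basic helix-loop-helix family that is needed for presomitic cells to form epithelial somites. RNA came from the anterior presomitic mesoderm together with the 4 youngest somites of C57BL/6J embryos, and each pool combined the tissue of 5 embryos of one genotype. The labels name no allele or agent other than the Paraxis genotype, and the 3 WT and 3 Paraxis-/- pools were hybridised to 6 two-colour arrays. Pair A set WT pool A against Paraxis-/- pool A, pair B set WT pool B against Paraxis-/- pool C, and pair C set WT pool C against Paraxis-/- pool B. Each pair was hybridised a second time with the dyes exchanged, and a pair's ratio is the mean of its 2 arrays, so n is 3 pairs throughout. All ratios are log2 of Paraxis-/- over WT, so that a value below 0 means less signal in Paraxis-/-. In such whole-tissue RNA, fewer cells of a type and less RNA per cell cannot be told apart.

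Epithelial somites are wrapped in a basement membrane whose network is made of laminin trimers and collagen IV trimers, bridged by nidogens and by the proteoglycan perlecan. Fibronectin forms a fibrillar matrix around the presomitic mesoderm before and while somites form, and the integrin of Itga5 and Itgb1 is its main assembly receptor. Integrins that pair Itgb1 with Itga3, Itga6 or Itga7, and dystroglycan, bind laminins.

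The deleted gene itself checked the labels. Tcf15 had a ratio of -5.41 (SE 0.087, limma adjusted p = 0.00053), with pool signals of 15.17 ± 0.11 in WT and 9.76 ± 0.05 in Paraxis-/- (log2, SD, n = 3). Between 27080 and 31795 of the 43379 gene spots of an array were well above background in a channel. All 10 paraxial mesoderm markers on the array were above background in every pool. The summed signal of the 9 other than Tcf15 ranged from 54686 to 57691 in WT and from 45353 to 64095 in Paraxis-/-. Of these 9 markers 7 had a ratio below 0, with a median of -0.28, and the lowest were Meox2 (-1.59), Tbx18 (-1.02), Uncx (-0.78) and Pax3 (-0.49), none past the adjusted threshold. The bright marker Meox1, which weighs most in the sum, had 0.24. Markers of other tissues were also measurable. The summed signal of 8 primitive blood markers was 82101 to 142851 in WT and 142022 to 218898 in Paraxis-/-. That of 8 surface ectoderm markers was 19615 to 31358 in WT and 30617 to 37521 in Paraxis-/-, and that of 10 endothelial markers was 12716 to 14432 in WT and 10607 to 16036 in Paraxis-/-. The 7 neural tube markers summed to 9975 to 14893 in WT and 12008 to 12254 in Paraxis-/-, and 5 tested yolk sac markers to 1009 to 3284 and 3834 to 5028. The part of these tissues in the ratios below was not tested.

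No integrin or basement membrane gene differed between the genotypes after adjustment over all genes. The smallest adjusted p among the 35 was 0.77, for Col4a6 (limma, Benjamini-Hochberg). Over the whole array 4 of 19335 genes passed, 0.0207%, so a count of 0 among 35 was close to this background. Before adjustment 8 of the 35 genes had a p below 0.05, which is 22.9% against 5.07% of all genes tested. Col4a1, Col4a2 and Hspg2 were the 3 of these with lower signal in Paraxis-/-, against 2.73% of all genes. Itga11, Itgb3, Itgb5, Col4a5 and Col4a6 were the 5 with higher signal, against 2.34% of all genes. That count of 8 was 5 without pair A, 7 without pair B and 5 without pair C. The shares of all genes in these fits were 5.82%, 3.78% and 5.12%. Ratios of the same sign in all 3 pairs were found for 13 of the 35 genes, or 37.1%, against 25.7% of all genes. The WT and Paraxis-/- pools did not overlap in signal for 5 of the 35, or 14.3%, against 6.07% of all genes. None reached a mean ratio of 1.5-fold. The SE of a gene's ratio ranged from 0.066 to 0.22 with a median of 0.086.

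**Figure D1:**
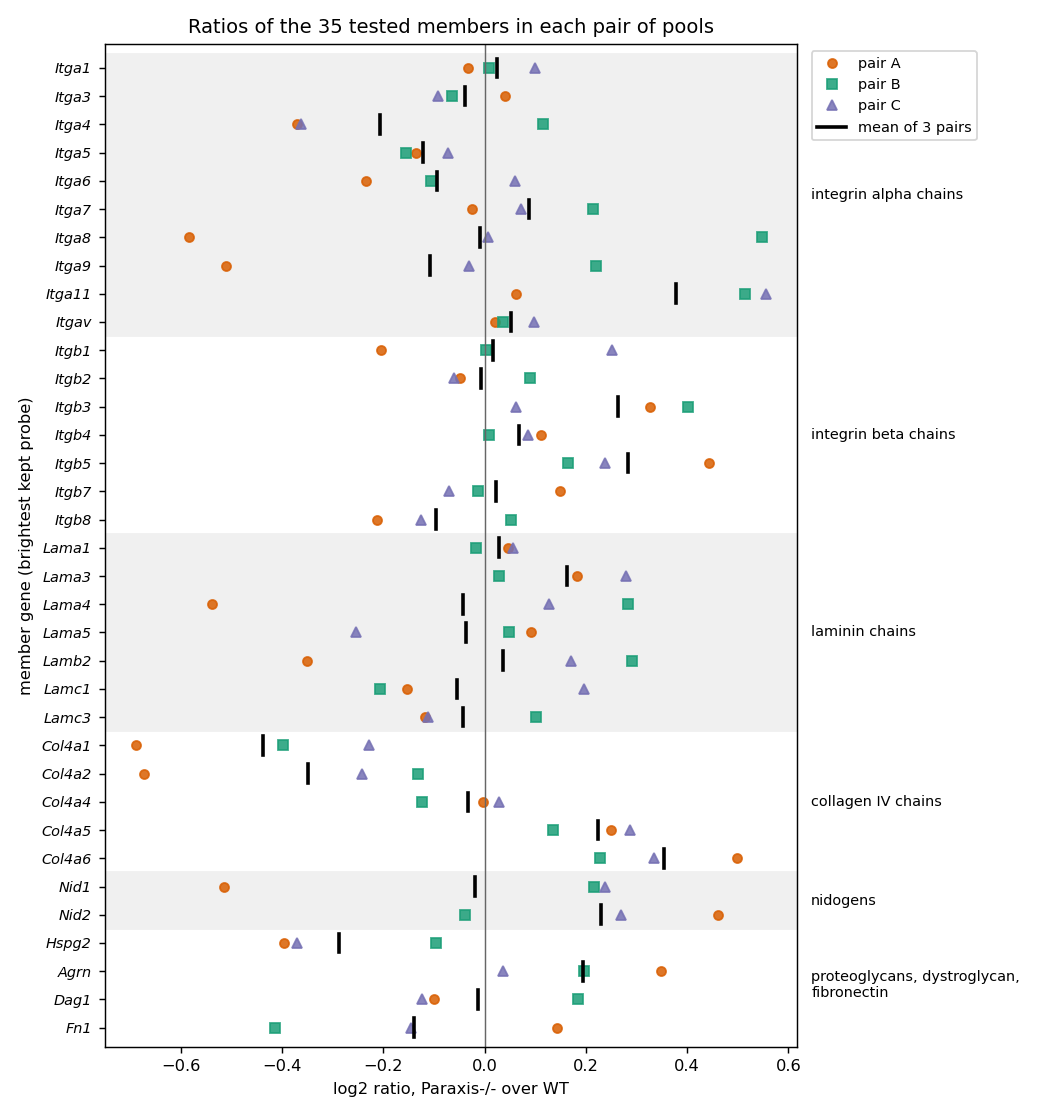
Log2 ratio of Paraxis-/- over WT (x axis) for each of the 35 tested genes (y axis, in order of role), with one symbol for each pair of pools and a bar at the mean of 3 pairs. Col4a1 and Col4a2 lie left of 0 and Col4a5 and Col4a6 right of 0 in all 3 pairs, whereas Nid1, Lama4, Lamb2 and Itga8 have pair A on the other side of 0 from pairs B and C.

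The remaining 6 genes were too dim to be tested. No measurement of Col4a3, Itga2 or Itgb6 was well above background in either genotype. Itga10 had 1 of 6 measurements above background in each genotype, Lamb3 had 0 in WT and 1 in Paraxis-/-, and the best probe of Lama2 had 2 in WT and 3 in Paraxis-/-. Itga2 and Itga10 code for collagen-binding integrin chains, Lama2 for the alpha chain of the laminin typical of muscle, and Itgb6 and Lamb3 for chains typical of epithelia. For these genes no difference was measurable. Of the 35 tested, 34 were well above background in all 12 measurements, and Itga7 in 11 of them (5 in WT and 6 in Paraxis-/-). None was marked as saturated.

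Of the 12 integrin alpha chains 10 were tested, and 4 lay above and 6 below 0, with a median of -0.024 beside 0.0039 over all genes. Itga11, which codes for a collagen-binding chain of mesenchymal cells, had the largest ratio of the integrins. Its WT pools gave 7.48, 7.45 and 7.44 (log2 signal in pairs A, B and C) and its Paraxis-/- pools 7.55, 7.96 and 7.996. All Paraxis-/- pools were above all WT pools, with ratios of 0.063, 0.51 and 0.56 in pairs A, B and C, the smallest being that of pair A. The mean ratio was 0.38 (SE 0.12, limma adjusted p = 0.93), or 1.299-fold, and 5 of the 6 arrays had it above 0. The probe lies at chr9:62631667-62631726 on the plus strand (mm9).

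Itga5, the fibronectin receptor chain, had ratios of -0.14, -0.16 and -0.073 in pairs A, B and C, a mean of -0.12 (SE 0.066, adjusted p = 0.95). The 3 pairs lay close together, yet the 2 dye-swapped arrays of pair A differed by 1.45, the largest such difference of any probe of the 41 genes. The median of that difference over their probes was 0.19. Itga4, a chain that binds fibronectin and the vascular adhesion molecule Vcam1, had -0.37, 0.11 and -0.36, so pair B lay opposite to the others. Its mean was -0.21 (SE 0.12, adjusted p = 0.95). This value rests on 1 of 6 Itga4 probes, and no measurement of the others was well above background. Itga7, a laminin-binding chain of muscle, had -0.025, 0.21 and 0.072, a mean of 0.087, which became 0.47 (SE 0.18) with the scanner's processed signals or the deposited ratios.

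The other 6 alpha chains had mean ratios between -0.11 and 0.051. Itga9, Itga6 and Itga3 had -0.11, -0.093 and -0.039, Itga8 had -0.0094, and Itga1 and Itgav had 0.025 and 0.051. Itga8, a chain that recognises nephronectin and other ligands with an arginine-glycine-aspartate motif, had the widest spread of all 35, with -0.58, 0.55 and 0.0073 in pairs A, B and C. Its mean near 0 is therefore an average of opposed pairs, and its 95% interval reached from -0.57 to 0.56.

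Of the 8 beta chains 7 were tested, and 5 lay above and 2 below 0, with a median of 0.022. Itgb5 and Itgb3, which both pair with the Itgav chain to bind vitronectin and fibronectin, were the beta chains with the largest ratios. For Itgb5 the WT pools gave 13.18, 13.48 and 13.57 and the Paraxis-/- pools 13.62, 13.64 and 13.80. The groups did not overlap, and each pair lay above 0, at 0.44, 0.17 and 0.24. The mean was 0.28 (SE 0.083, adjusted p = 0.93), or 1.22-fold, with all 6 arrays above 0. Its probe is at chr16:33949123-33949182 on the plus strand.

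Itgb3 was measured by a pair of probes that gave different values. At the brighter probe the WT pools were at 8.504, 8.30 and 8.54 and the Paraxis-/- pools at 8.83, 8.71 and 8.603. The groups did not overlap, although pair C differed by only 0.063, and the mean ratio was 0.26 (SE 0.092, adjusted p = 0.93). The other probe had -0.014.

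Itgb1 codes for the beta chain shared by most matrix-binding integrins, and its brightest probe had -0.20, 0.0023 and 0.25, a mean of 0.017 (SE 0.11). Itgb4, which pairs with Itga6 in hemidesmosomes, had 0.11, 0.0082 and 0.085, a mean of 0.069. Itgb8, which pairs with Itgav and binds latent TGF-beta, had -0.21, 0.051 and -0.13. The leukocyte chains Itgb2 and Itgb7 had means of -0.0062 and 0.022, and their pairs did not share a sign.

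Of the 9 laminin chains 7 were tested, and their means covered a narrow range, from -0.054 to 0.16, with 3 above and 4 below 0 and a median of -0.037. None had a p below 0.05 before adjustment in this fit. Lama1, the alpha chain of the first laminin of the embryo, had 0.046, -0.017 and 0.056, a mean of 0.028 (SE 0.066). The probe's genome span of 963 bases shows that it crosses a splice junction. Lama5, the alpha chain that many epithelial basement membranes carry, had 0.092, 0.049 and -0.25. The annotated genome span of its probe is 15 bases, less than the probe length of 60. Lamc1, the gamma chain of most laminins, had -0.15, -0.21 and 0.20, and Lamc3 had -0.12, 0.10 and -0.11. Lama3 was the only laminin with all 3 pairs on one side of 0, at 0.18, 0.029 and 0.28, a mean of 0.16 (SE 0.079, adjusted p = 0.95). It was dim, with pool signals from 6.92 to 7.31, where the untested Lamb3 had 6.34 to 6.46. Its second probe had a mean of 0.062 and was above background in 5 of 6 WT measurements. With the scanner's processed signals or the deposited ratios, Lama3 was at 0.46 (SE 0.13, adjusted p = 0.84), the smallest adjusted p of the 35 there.

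Lama4 and Lamb2 split between the pairs. Lama4, the alpha chain typical of blood vessels, had -0.54, 0.28 and 0.13, and Lamb2 had -0.35, 0.29 and 0.17. All 3 tested probes of Lama4 showed this split, with -0.54, -0.43 and -0.35 in pair A and values between 0.034 and 0.28 in the other pairs. The mean ratios of Lama4 (-0.043) and Lamb2 (0.037) thus describe none of the pairs. The endothelial markers had median ratios of -0.21, 0.15 and -0.027 in pairs A, B and C, and their part in the Lama4 values was not tested.

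The collagen IV chains spanned the widest range of the 6 roles, from -0.44 to 0.35. Of the 6 chains 5 were tested, and 4 of these had the same sign in all 3 pairs. Col4a1 and Col4a2, whose products form the common collagen IV trimer of most basement membranes, had lower signal in Paraxis-/-. Col4a5 and Col4a6, whose products form a trimer of more restricted distribution, had higher signal. Col4a4, a chain best known from kidney, lens and inner ear, had -0.0037, -0.12 and 0.028. The annotated genome span of that probe is 29 bases, less than the probe length of 60. The other Col4a4 probe was well above background in 0 of 6 measurements of each genotype. No chain passed the adjusted threshold.

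For Col4a1 the WT pools gave 12.24, 11.74 and 11.67 and the Paraxis-/- pools 11.55, 11.34 and 11.44. Every Paraxis-/- pool was below every WT pool, with ratios of -0.69, -0.40 and -0.23. The mean of -0.44 (SE 0.11, adjusted p = 0.81) corresponds to a signal 1.35-fold higher in WT, was the largest of the 35 in size, and had a 95% interval from -0.72 to -0.16. All 6 arrays lay below 0. Without pair A the mean was -0.31. The probe is at chr8:11199009-11199068 on the minus strand. A second probe of Col4a1 was marked as an outlier on all 6 arrays and gave no value.

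For Col4a2 the WT pools gave 11.02, 9.95 and 9.95 and the Paraxis-/- pools 10.34, 9.82 and 9.71. The groups overlapped, because both pools of pair A, on the other slide, were brighter than all the others, but each pair had less signal in Paraxis-/-, with -0.67, -0.13 and -0.24. The mean was -0.35 (SE 0.12, adjusted p = 0.95), and -0.19 without pair A. Its second probe, at chr8:11448180-11448239, had -0.54, -0.34 and -0.43. That probe's mean of -0.44 (SE 0.074) had the smallest adjusted p of any probe of the 41 genes, 0.52 in the fit of 28422 probes, in which 0.0141% passed. Both probes lay below 0 on all 6 arrays.

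For Col4a5 the WT pools gave 7.85, 8.16 and 8.13 and the Paraxis-/- pools 8.10, 8.29 and 8.42. The groups overlapped, yet each pair lay above 0, at 0.25, 0.14 and 0.29, a mean of 0.22 (SE 0.071, adjusted p = 0.93). At the brightest Col4a6 probe the WT pools gave 9.67, 10.59 and 10.56 and the Paraxis-/- pools 10.17, 10.82 and 10.90. The pools of pair A were dimmer than the others, so the groups overlapped, while the pair ratios were 0.50, 0.23 and 0.33. The mean of 0.35 (SE 0.082, adjusted p = 0.77) had the smallest p of the 35. Col4a5 and this Col4a6 probe lay above 0 on all 6 arrays. The other Col4a6 probes lay above 0 on 3 and 4 of the 6, with means of -0.0059 and 0.078, and the mean over its kept probes was 0.14.

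**Figure D2:**
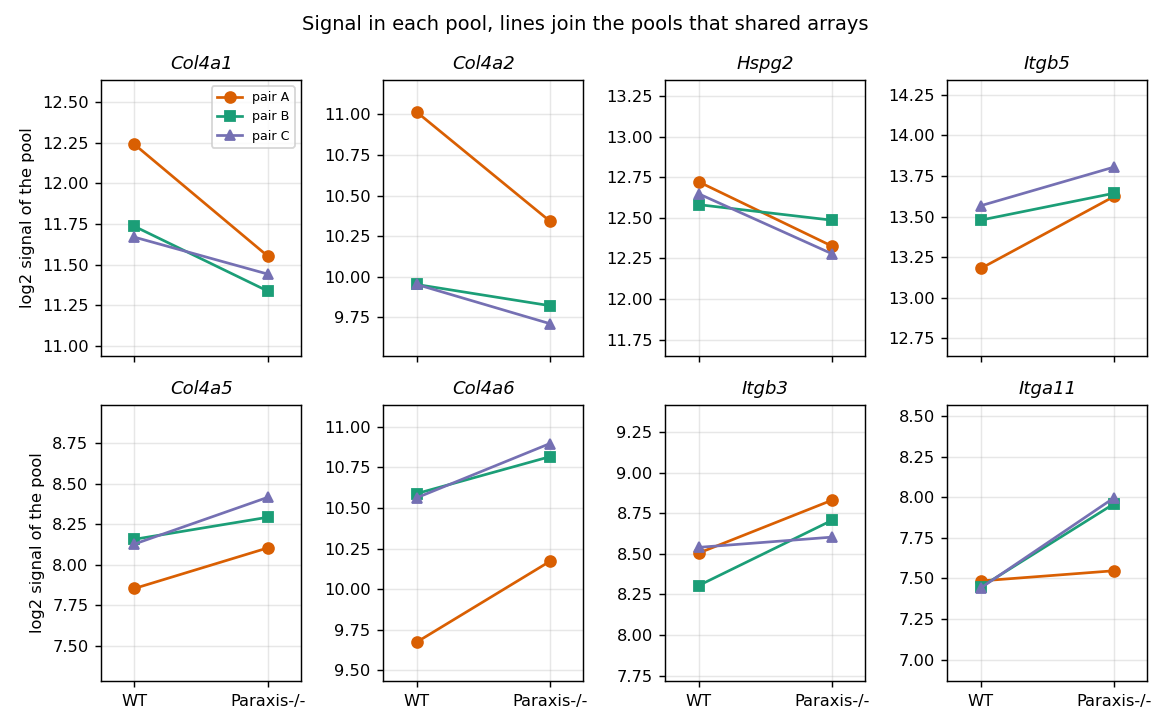
Log2 signal (y axis) of the 8 genes with a p below 0.05 before adjustment in the WT and Paraxis-/- pools (x axis), with a line for each pair of pools that shared arrays. All lines of Col4a1, Col4a2 and Hspg2 go down and all lines of Itgb5, Col4a5, Col4a6, Itgb3 and Itga11 go up, and pair A starts apart from the other pairs for Col4a2 and Col4a6.

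The opposite signs were set against each other pair by pair, a comparison chosen after the values were seen and given with no test. The mean ratio of Col4a1 and Col4a2 was -0.68, -0.26 and -0.23 in pairs A, B and C, and that of Col4a5 and Col4a6 was 0.37, 0.18 and 0.31. The difference was 1.05, 0.45 and 0.55, a mean of 0.68 (SD 0.33, n = 3). It was largest in pair A and had the same direction in each pair. The Col4a6 part of it rests on 1 of 3 probes. With the mean of a gene's tested probes in place of the brightest, the difference was 0.88, 0.41 and 0.50, a mean of 0.60 (SD 0.25), and the Col4a5 and Col4a6 part of it fell from 0.29 to 0.18.

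These 4 genes lie in the genome as head-to-head neighbours, Col4a1 beside Col4a2 and Col4a6 beside Col4a5, each neighbour transcribed away from the other. Stretches at their facing ends are shown because the ratios of the brightest probes had one sign within each neighbouring pair and opposite signs between the pairs. For Col4a6 this holds at 1 of its 3 probes. In RefSeq's annotation of GRCm38.p6 Col4a1 and Col4a2 overlap by 85 bases at their 5′ ends, and a stretch of 23 bases holds a start site of each at its ends. The genes Col4a6 and Col4a5 are 1274 bases apart, of which 231 beside Col4a6 and 201 beside Col4a5 are shown. The sequences are from RefSeq, written 5′ to 3′, and capitals mark an E-box (CANNTG), the motif that basic helix-loop-helix factors bind. The first is on the plus strand at chr8:11312805-11312827, the second on the minus strand at chrX:141474096-141474326 and the third on the plus strand at chrX:141475169-141475369.
Col4a2 start to Col4a1 start: agtgcgcgggcggcgtctccaag
Upstream of Col4a6: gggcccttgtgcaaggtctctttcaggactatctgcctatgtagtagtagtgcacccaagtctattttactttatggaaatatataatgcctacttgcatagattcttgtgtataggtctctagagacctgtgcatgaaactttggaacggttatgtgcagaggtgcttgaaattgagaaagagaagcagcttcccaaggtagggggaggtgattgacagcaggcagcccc
Upstream of Col4a5: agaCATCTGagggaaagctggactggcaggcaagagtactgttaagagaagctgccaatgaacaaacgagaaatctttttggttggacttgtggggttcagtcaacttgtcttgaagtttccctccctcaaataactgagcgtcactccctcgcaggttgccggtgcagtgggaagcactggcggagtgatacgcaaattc
The Col4a5 stretch holds 1 E-box and the other stretches none. The bases between the printed Col4a6 and Col4a5 stretches are not part of this count. Windows from 250 bases before to 50 bases after a start were listed for 28 of the 41 genes, 33 windows in all. An E-box, read on both strands since it is its own reverse complement in these letters, was in 23 of the 33 windows, or 69.7%, against 72.3% of 32851 windows of all genes. The GC box GGGCGG, searched on both strands and able to share a base with an E-box, was in 20 of the 33, or 60.6%, against 35.7% of all windows. It was in the windows of Col4a1, Col4a2, Col4a5, Col4a6, Hspg2 and Itgb5. A match is a run of letters and no measured site.

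The nidogens, which link laminin to collagen IV, had separate patterns. Nid1 had pair ratios of -0.51, 0.22 and 0.24, a mean of -0.020 (SE 0.17). Its WT pools were alike, at 11.25, 11.29 and 11.41, while its Paraxis-/- pools were at 10.74, 11.50 and 11.65, so the Paraxis-/- pool of pair A stood below all others. Nid2 had 0.46, -0.038 and 0.27, a mean of 0.23 (SE 0.11, adjusted p = 0.95). Its WT pools lay between 12.39 and 12.45, and its Paraxis-/- pools at 12.91, 12.39 and 12.66. In pair A the nidogens therefore differed in opposite directions.

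Perlecan, the product of Hspg2, is the large heparan sulfate proteoglycan of basement membranes. Its WT pools gave 12.72, 12.58 and 12.65 and its Paraxis-/- pools 12.33, 12.49 and 12.28. No pools of the groups overlapped, and the pair ratios were -0.40, -0.096 and -0.37. The mean of -0.29 (SE 0.089, adjusted p = 0.93) is a 1.22-fold difference, with 5 of 6 arrays below 0. The probe is at chr4:137126392-137126451 on the plus strand. Agrn, which codes for the proteoglycan agrin, had the opposite sign, at 0.35, 0.20 and 0.037, a mean of 0.19 (SE 0.086, adjusted p = 0.95). Its pools overlapped.

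Dag1, which codes for the laminin receptor dystroglycan, had -0.10, 0.18 and -0.12, a mean of -0.013 (SE 0.090), and its second probe gave -0.0043. Fn1, the gene of fibronectin, had 0.14, -0.41 and -0.14 at its brightest probe, a mean of -0.14 (SE 0.12, adjusted p = 0.95). Its middle probe by brightness had -0.13, -0.32 and -0.11, and its dimmest 0.48, -0.12 and -0.11. All 3 Fn1 probes lay below 0 in pairs B and C.

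Receptors and ligands were compared by their medians, with no test, since 3 pairs cannot go below p = 0.25 in an exact sign-flip test. The 17 tested integrin chains had a median ratio of 0.017 and the 14 tested laminin, collagen IV and nidogen chains a median of -0.026, beside 0.0039 over all genes. The difference of these medians, ligands minus receptors, was -0.043. Calculated within pairs it was -0.027, -0.013 and 0.090 (SD 0.064), so the pairs did not share a sign. It was smaller than the spread between pairs. The receptor medians of the pairs were -0.033, 0.051 and 0.059 and the ligand medians -0.060, 0.039 and 0.15, so both groups were below 0 in pair A and above it in pairs B and C. Of the receptors 9 lay above and 8 below 0, and of the ligands 6 above and 8 below. Before adjustment 3 receptors, all with higher signal, and 4 ligands, in equal numbers higher and lower, had a p below 0.05. These were 17.6% of the tested receptors and 28.6% of the tested ligands. Of all genes 5.07% did, 2.34% higher and 2.73% lower. Whether receptors and ligands differed in direction was not tested. The 14 ligands spanned -0.44 to 0.35 and the 17 receptors -0.21 to 0.38, and the collagen IV chains made both ends of the ligand range.

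Of the 35 genes 16 had more than 1 tested probe, which allowed a gene's value to be checked within the same arrays. Of the 59 tested probes 10 had a p below 0.05 before adjustment in the probe fit, in which 5.67% of all probes did. In 9 of the 16 genes all probes had a mean ratio of one sign, among them Itgb4 and Lama4, which have probes that overlap. The share over all genes was not computed. The distance between the highest and the lowest probe of a gene ranged from 0.0089 for Dag1 to 0.38 for Itga6, with a median of 0.10. In 8 of the 16 that distance had one direction in all 3 pairs. The highest and lowest probes were picked on the mean of these same pairs, which favours one direction. Since only one probe represents a gene in the fit, the choice of probe mattered for some of the genes above.

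**Figure D3:**
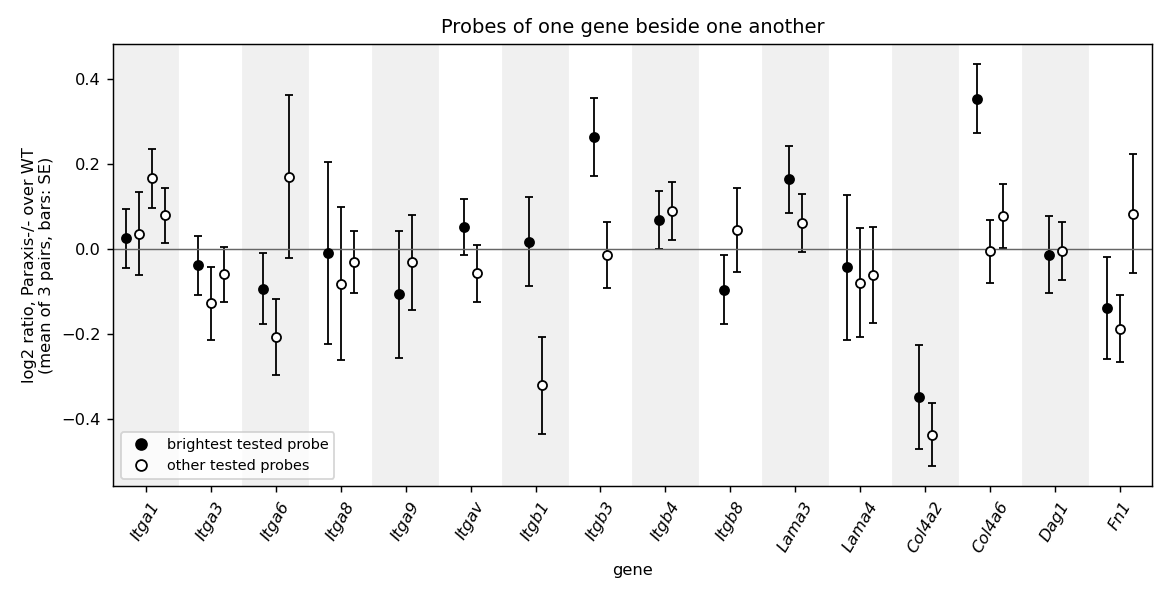
Mean log2 ratio of Paraxis-/- over WT (y axis; bars, moderated SE from limma) for each tested probe of the 16 genes with more than 1 tested probe (x axis), with the brightest probe of each gene filled. The probes of Col4a2 lie together below 0, whereas those of Col4a6, Itgb1, Itgb3 and Itga6 lie apart.

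Overlapping probes gave nearly the same value at Itgb4, which pairs with Itga6. They share 50 of their 60 bases on chromosome 11 and had mean ratios of 0.089 and 0.069, with pair differences of 0.0090, 0.022 and 0.030. The first 30 bases of each are shown for comparison, with the bases that both printed stretches hold in capitals.
Itgb4 probe at chr11:115869547-115869606: gtccaggaacCATAAAGTGGGTAGAGGTGA
Itgb4 probe at chr11:115869557-115869616: CATAAAGTGGGTAGAGGTGAtacaaggtct
Probes at separate places of a gene were farther apart at some genes but not at all, since those of Dag1 differed by only 0.0089. The first 30 bases of the probes of Col4a6, Itgb1 and Itgb3, genes with wide distances, are given, brightest first. Their values decide how these genes are read. Whether a probe lies in a coding or an untranslated part of its transcript was not annotated here.
Col4a6 probe at chrX:137599990-137600049: ggcaaagcataacaagtacattctgagctc
Col4a6 probe at chrX:137601433-137601491: cagtccctaatctcccctggctcgtgtctt
Col4a6 probe at chrX:137600816-137600875: aggatttccaccctaaaaatacgtttctgg
Itgb1 probe at chr8:131256492-131256551: aaataaaattgacacagttgatgttcaagt
Itgb1 probe at chr8:131246349-131246408: tggacgcttactgcaggaaagagaacagtt
Itgb3 probe at chr11:104531672-104531731: ccacagcaacatcagagtctttgtccattt
Itgb3 probe at chr11:104528490-104528560: tgggactctctgccattatgtttacagagg
At Col4a6 the brightest probe gave 0.35, and the others -0.0059 (SE 0.074) and 0.078 (SE 0.075). The brightest exceeded the lowest by 0.39, 0.26 and 0.42 in pairs A, B and C, so the Col4a6 ratio named above was seen at 1 of its 3 probes. At Itgb1 the brightest probe gave 0.017 and the other -0.40, -0.032 and -0.53, a mean of -0.32 (SE 0.11, adjusted p = 0.85 in the probe fit), with all 6 arrays below 0. The distance between them was 0.19, 0.034 and 0.78, most of it in pair C. At Itgb3 the distance was 0.33, 0.30 and 0.20, and the dimmer probe differed by 0.80 between the dye-swapped arrays of pair A.

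At Itga6, a laminin-binding chain, the probes with means of -0.093 and -0.21 ran together, while the dimmest had 0.50, 0.42 and -0.40, a mean of 0.17 (SE 0.19). At Itga9 the probes had means of -0.11 and -0.032, but in pair A they stood at -0.51 and 0.23. Both were well above background in every measurement. By contrast the 3 probes of Lama4, of which the brightest and the next overlap in position, had one sign in each pair. So had the 2 of Col4a2.

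Genes that work with integrins and basement membranes were taken from wider lists, and none of them passed the adjusted threshold. Of 20 adaptors and focal adhesion genes 11 lay above and 9 below 0, with a median of 0.031. The smallest p there were those of Src, a tyrosine kinase of focal adhesions, at 0.29 (SE 0.090, adjusted p = 0.93), and of Zyx, which codes for zyxin, at 0.17 (SE 0.085). Of 16 tested genes for other basement membrane proteins 6 lay above and 10 below 0. Ntn1, which codes for the guidance protein netrin-1 related to laminins, had -0.29, -0.71 and -0.64, a mean of -0.55 (SE 0.10, adjusted p = 0.57), and Hmcn1, which codes for hemicentin-1, had 0.32 (SE 0.10). Before adjustment a p below 0.05 was found for 4 of these 16 genes, 1 of the 20 adaptor genes, 2 of 11 collagen processing genes and 0 of 15 dystroglycan complex genes, against 5.07% of all genes.

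Among 11 tested genes of collagen processing 7 lay above and 4 below 0. Plod1, a lysyl hydroxylase that modifies collagen chains, had -0.96, -0.66 and -0.42, a mean of -0.68 (SE 0.12, adjusted p = 0.55). Its WT pools (8.33 ± 0.24) and Paraxis-/- pools (7.65 ± 0.05) did not overlap. P4ha2, a prolyl hydroxylase of collagens, had 0.23 (SE 0.080). Of 15 genes of the dystroglycan complex 8 lay above and 7 below 0. There Utrn had 0.13 and Dmd -0.17. The 3 tested chains of other integrins lay between 0.0022 and 0.041, among them Itgae and Itgax at 0.041 and 0.0036.

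Pair A differed from the other pairs for several genes. In 10 of the 35, or 28.6%, pair A lay on the other side of 0 from both other pairs, against 25.2% of all genes, so such opposition was about as common as elsewhere. Pair A was the only pair on slide 1. Markers of other tissues also differed between pairs, and not in pair A alone. The median ratio of pair A was 0.43 over surface ectoderm markers, against 0.090 and 0.11 in pairs B and C, and -0.19 over neural tube markers, against 0.11 and 0.21. Over primitive blood markers pair B stood out, with medians of 0.31, 1.05 and -0.090 in pairs A, B and C. The presomitic marker Tbx6 had ratios of 2.43, -0.59 and 0.22 in pairs A, B and C. The part of these differences in the ratios of Nid1, Lama4, Lamb2 and Itga8 was not tested. Within slide 2, that is without pair A, the means were -0.31 for Col4a1, -0.19 for Col4a2, -0.23 for Hspg2, 0.21 for Col4a5, 0.28 for Col4a6, 0.20 for Itgb5, 0.23 for Itgb3 and 0.53 for Itga11. These 8 genes were picked on all 3 pairs, so their shared direction is a description.

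**Figure D4:**
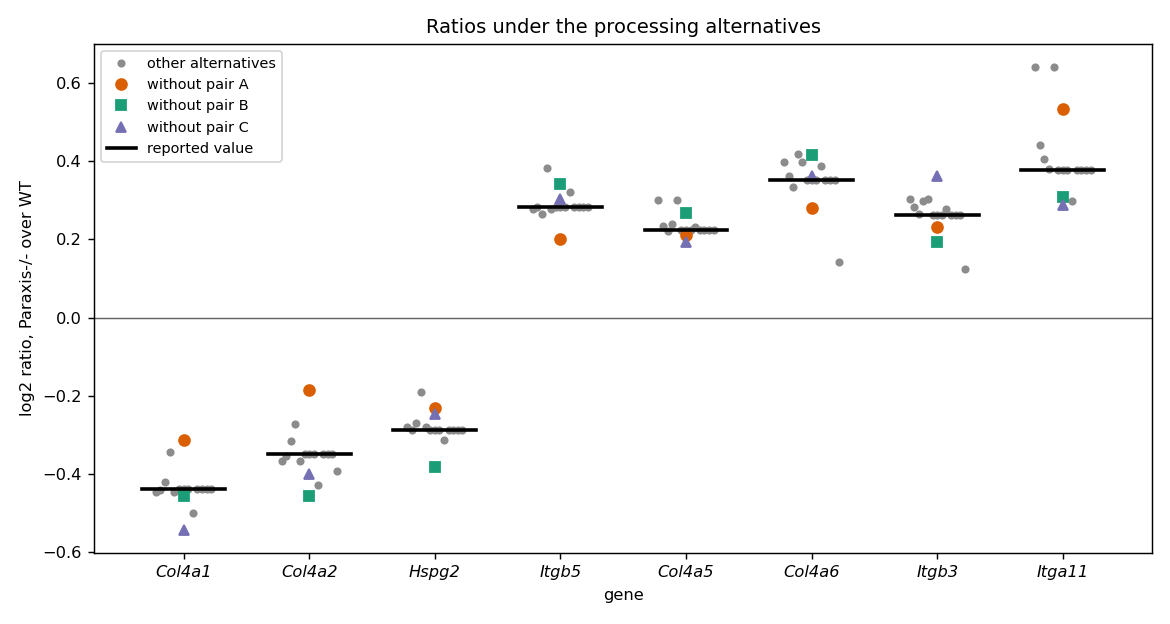
Mean log2 ratio (y axis) of the 8 genes with a p below 0.05 before adjustment (x axis) as reported (bar), without each pair (coloured symbols) and under the other processing alternatives (grey). Each gene, picked on all 3 pairs, is on one side of 0 in these fits, and the lowest grey points of Col4a6 (0.14) and Itgb3 (0.12) are means over all kept probes of these genes.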

How the data were processed

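Spot intensity in both channels was read with Agilent Feature Extraction, per the file headers version 10.7.3.1 for slide 1 and 10.5.1.1 for slide 2, whereas the submitters' processing notes name 8.5.1.1. The deposited log10 ratios (red over green) matched those of the scanner files within 5e-11. Pools were paired by the array titles, which the descriptions contradict for 2 arrays. In limma 3.58.1 (R 4.3.3, with data.table version 1.17.8), median intensities of all arrays were corrected by normexp (offset 50) against the median local background and put through within-array loess, with control and outlier spots given weight 0 and outliers dropped. Probes well above background in at least 4 of 6 measurements of either genotype were kept (28639 of 41174), and the brightest stood for its gene. Pair ratios were tested against 0 (lmFit, eBayes, two-sided, adjusted p threshold 0.05, at least 2 pairs). In all 73 of 19335 genes had 2 pairs. Pool signals are log2 values after loess and Aquantile scaling. A simulated data set with known changes tested the fit.

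Full pair values are given for up to 4 tested members of each role with the smallest p, and for members of at least 1.3-fold in one direction in all pairs; of each wider list, up to 2 are named. Other members whose pairs or probes disagree were added after their values were seen. The members and lists were chosen with earlier results of these data known. Probe coordinates are mm9, per the file headers, and probe names are the files'. The labels call the pools biological replicates. Arrays of a pair correlated at 0.37, 0.22 and 0.50 across genes. Arrays of different pairs with the same dye order correlated at 0.0062 to 0.37, a range that includes the value of pair B. On slide 2, arrays paired by the descriptions correlated at -0.14 and -0.094. The number of pairs limits the precision.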

Additional observations from a re-analysis of the deposited data

How the results depend on the processing

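No gene of the 41 passed the adjusted threshold under any of 16 alternatives, where the smallest adjusted p was 0.15. Over 22 of these genes, 342 of 351 alternative ratios kept their sign and 9 did not. Part of this count was fixed beforehand. Fits on single arrays, with or without a replicate block, and the pairing of the descriptions average the same arrays. They returned the reported ratios and could not change a sign. The deposited ratios repeated the values of the scanner's processed signals. The 22 genes were also chosen by their p within each role on these same data, so the count is a description. With ratios scaled between arrays Nid1 was at 0.020 and Dag1 at 0.0068. With median centring in place of loess Lamc1 was at 0.046, Nid1 at 0.062 and Dag1 at 0.060, and the difference of ligand and receptor medians was 0.022 in place of -0.043. Leaving out pair A gave 0.23 for Nid1 and 0.030 for Dag1, leaving out pair B 0.022 for Lamc1, and leaving out pair C 0.042 for Dag1. The cause was not tested. Leaving out one pair at a time, the receptor median ranged from -0.012 to 0.054, the ligand median from -0.034 to 0.068 and their difference from -0.058 to 0.013. Over the same 3 fits Lamc1 ranged from -0.18 to 0.022, Nid1 from -0.15 to 0.23 and Dag1 from -0.11 to 0.042. Ratios scaled between arrays put the ligand median at 0.012, and the slide as a block put the receptor median at -0.017.

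The pair is the replicate here. Taking the 6 arrays as samples with the pair as a replicate block called 0 of the 41 genes and 66 genes in all, and with no replicate block 0 and 91, against 0 and 4 as reported. The slide as a block gave 0 and 76, and scaled ratios 0 and 18. Without pairs A, B and C in turn the counts over all genes were 2, 0 and 2. With the pairing of the descriptions 5 genes passed. Before adjustment, 3 lower and 5 higher genes with a p below 0.05 became 1 lower and 7 higher with the scanner's processed signals or the deposited ratios. With median centring they became 1 lower and 5 higher. Over all genes the share was 5.07% as reported, 5.47% with processed signals or deposited ratios and 7.33% with median centring. Itga11 was at 0.64, Itga7 at 0.47 and Lama3 at 0.46 with processed signals, and Col4a6 was 0.14 and Itgb3 0.12 as means over kept probes. Keeping outlier spots, an alternative chosen after the data were seen, left 0 called. Itga7 could not be given with probes above background in all measurements.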
